A study of Mus musculus with 22 samples.

Results

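Zinc buffering and zinc transport were followed here through 6 mouse genes: the metallothioneins Mt1 and Mt2, their transcriptional regulator Mtf1, the zinc exporter Slc30a1 and the zinc importers Slc39a6 and Slc39a10. They were taken from the gene expression table by an exact match of the gene symbol, with no measured value entering the choice, and each symbol matched 1 gene, which gives 6 of 55335 genes. The study depleted the histone variant H2A.Z from mouse zygotes and sequenced RNA to learn which genes depend on that variant before implantation. RNA was sequenced by Smart-seq2, which copies polyadenylated RNA, in 22 libraries of 15 pooled embryos each.

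All embryos came from B6D2F1 females, 8 weeks old and superovulated, mated with B6D2F1 males. H2A.Z knockdown (KD) embryos had been injected as zygotes with about 10 pl of a 20 µM mix of siRNAs against H2A.Z, and the labels and methods do not state whether the control embryos of these libraries were injected. The 2-cell embryos, collected 44 h after human chorionic gonadotropin (hCG), gave 4 control and 3 KD libraries. Morulae, collected at 78 h, gave 4 control and 3 KD libraries, and blastocysts, collected at 94 h, gave 4 control and 4 KD libraries. Replicate numbers below are those of the sample titles.

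Metallothioneins are small cysteine-rich proteins that bind zinc and copper, and MTF1 is a zinc finger transcription factor that senses free zinc and binds metal response elements in the promoters of Mt1, Mt2 and Slc30a1. Proteins of the SLC30 (ZnT) family carry zinc out of the cytosol, into vesicles or across the plasma membrane, and proteins of the SLC39 (ZIP) family carry it into the cytosol. Mouse oocytes take up zinc as they mature and release part of it at fertilization, and ZIP6 and ZIP10, the products of Slc39a6 and Slc39a10, are known as zinc importers of the oocyte.

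Levels are FPKM as deposited, a measure of fragments scaled to transcript length and to the mapped reads of the library, so read counts and depth are unknown and no counting interval is given. A relative depth taken from the low values of single-exon genes had a median of 25.0 in control and 23.1 in KD 2-cell embryos, 23.9 and 24.1 in morulae, and 17.8 and 19.8 in blastocysts. It was read from the commonest step among the low values, which held 2.44% to 11.4% of them per library, and is rough. Differences are log2 fold changes, KD minus control or later minus earlier stage, fitted with limma on scaled FPKM plus 1, with the standard error (SE) and a p adjusted over all genes tested, and a gene rose or fell where that adjusted p was under 0.05. The p-values measure the spread between libraries, since the labels do not say whether libraries of a group came from separate collections. In pooled whole embryos, fewer cells of a type and less RNA per cell cannot be told apart. The study reported that fewer KD than control embryos formed blastocysts. The part of slower development, or of which embryos were collected, in the blastocyst differences was not tested.

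H2afz, the main gene for H2A.Z, stood at 1244, 1236, 905 and 1178 FPKM in control 2-cell embryos of replicates 1, 2, 4 and 5, and at 415, 139 and 112 FPKM in KD replicates 1, 2 and 4. In morulae it stood at 1158, 1336, 1511 and 1421 FPKM in control replicates 1, 2, 7 and 8, and at 30.3, 25.7 and 29.0 FPKM in KD replicates 1, 2 and 6. In blastocysts it stood at 2656, 2430.5, 1945 and 2055 FPKM in control replicates 1, 4, 5 and 6, and at 64.2, 67.2, 53.2 and 57.6 FPKM in KD replicates with the same numbers. Every KD library was below every control library of its stage, and KD replicate 1 of the 2-cell stage was the highest of the KD libraries. H2afz fell in morulae, by a log2 difference of -5.41 (adjusted p = 9.72e-08), and in blastocysts, by -5.19 (adjusted p = 3.63e-08), while the 2-cell difference was -2.53 (SE 0.38, adjusted p = 0.544). H2afv, the gene for the related form H2A.Z.2, ranged from 83.7 to 97.6 FPKM in KD and from 96.8 to 118 FPKM in control 2-cell embryos. It ranged from 9.90 to 12.9 FPKM in KD and from 92.5 to 113 FPKM in control morulae, and from 10.6 to 19.9 FPKM in KD and from 49.9 to 63.5 FPKM in control blastocysts.

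In control embryos the 2-cell and oocyte marker genes followed the stage labels. The 6 genes of the 2-cell stage list, led by Tcstv3, summed to between 343 and 615 FPKM in control 2-cell libraries and to between 0.636 and 3.42 FPKM in control blastocysts. In KD blastocysts their sum ranged from 4.63 to 29.3 FPKM. That range overlapped control morulae, at 5.68 to 17.7 FPKM, and KD morulae, at 9.94 to 16.4 FPKM. The 8 oocyte genes, led by Oosp1 at the 2-cell stage, summed to between 766 and 1019.6 FPKM in control 2-cell embryos and to between 1.94 and 2.75 FPKM in control blastocysts. Cells that surround the egg left little signal: the 10 cumulus genes summed to at most 3.72 FPKM in any 2-cell library, with Tnfaip6 as the most abundant and Ptx3 and Inhba at 0, and to at most 0.380 FPKM in morulae and blastocysts. The 6 sperm genes, led by Prm2 in most groups, summed to at most 1.77 FPKM in any library, with Smcp at 0 in every group.

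Mt1 and Mt2 were the highest of the 6 genes in every group, and the metallothioneins, the regulator and the transporters followed different courses through the stages. Mt1 (ENSMUSG00000031765.8, GRCm38, chr8:94179082-94180327, plus strand) encodes one of the ubiquitous metallothioneins. In control 2-cell embryos of replicates 1, 2, 4 and 5 it stood at 195, 189, 223 and 163 FPKM. In control morulae of replicates 1, 2, 7 and 8 it stood at 447, 389, 328 and 364 FPKM. In control blastocysts of replicates 1, 4, 5 and 6 it stood at 1814, 1837, 2381 and 2901 FPKM. The ranges of the 3 stages did not overlap, and the group means climbed from 192 ± 24.3 (SD, n = 4) to 382 ± 50.3 (SD, n = 4) and 2233 ± 516.9 (SD, n = 4) FPKM. Mt1 rose by 0.98 on the log2 scale from 2-cell to morula (SE 0.15, adjusted p = 6.35e-05) and by 2.44 from morula to blastocyst (SE 0.16, adjusted p = 3.56e-07). Ranked by FPKM among all genes, Mt1 was between rank 208 and rank 309 in the control 2-cell libraries and between rank 22 and rank 37 in the control blastocyst libraries.

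Mt2 (ENSMUSG00000031762.7, chr8:94172664-94173568, plus strand) encodes the other ubiquitous metallothionein and ends 5513 bases before the start of Mt1. Control 2-cell embryos, in the same order of replicates, held 161, 150.3, 132 and 134 FPKM of Mt2. Control morulae held 408, 329, 326 and 377 FPKM, and control blastocysts held 851, 642, 949.6 and 1125 FPKM. Here too each stage lay wholly above the one before. Mt2 rose by 1.303 on the log2 scale from 2-cell to morula (SE 0.16, adjusted p = 1.11e-05) and by 1.20 from morula to blastocyst (SE 0.18, adjusted p = 0.000149). Together Mt1 and Mt2 made up a mean of 0.0753% of all FPKM in control 2-cell embryos, 0.126% in control morulae and 0.465% in control blastocysts.

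**Figure D1:**
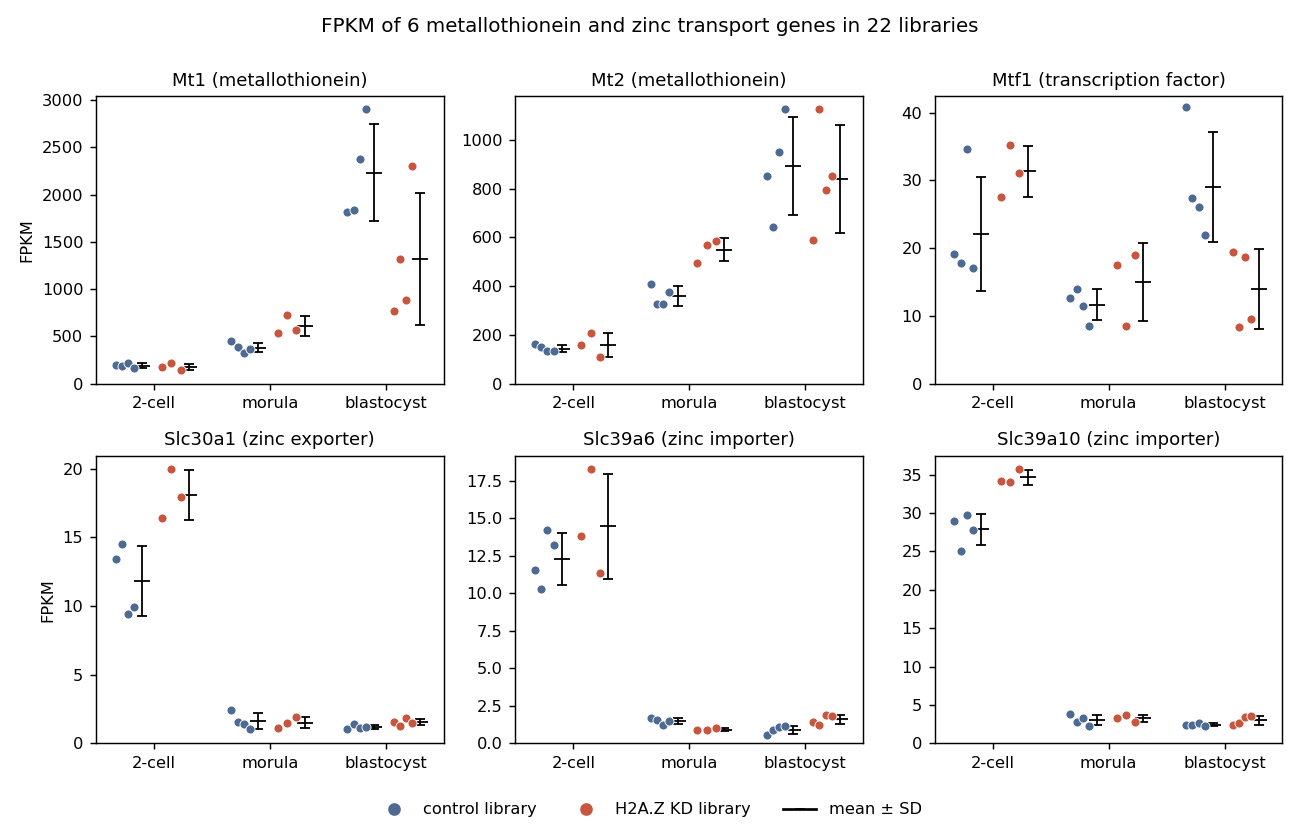
FPKM of the 6 genes in each of the 22 libraries, on linear axes that start at 0, with 1 panel per gene, points for libraries and a black mark with an error bar for the group mean and SD. Mt1 and Mt2 climb from the 2-cell stage to the blastocyst, while Slc30a1, Slc39a6 and Slc39a10 are high in 2-cell embryos and low afterwards.

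In KD 2-cell embryos of replicates 1, 2 and 4, Mt1 stood at 176, 215 and 146 FPKM. Mt2 stood at 159, 210.1 and 111 FPKM in the same libraries. Both genes had values inside and outside the control range, and KD replicate 4 was the lowest library of the stage for each. The difference was -0.05 for Mt1 (SE 0.16, adjusted p = 0.971) and 0.17 for Mt2 (SE 0.20, adjusted p = 0.895). At this stage limma called 0 of 12160 genes, with 701 genes, or 5.76%, at an unadjusted p under 0.05, so 0 of the 6 genes passed against a background of 0%.

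In morulae both metallothioneins were higher after KD. Mt1 stood at 534, 732 and 567 FPKM in KD replicates 1, 2 and 6, all above the highest control value of 447 FPKM. Mt2 stood at 497, 570.4 and 584 FPKM, all above the highest control value of 408 FPKM. Neither pair of groups overlapped, and KD replicate 2 was the highest library for Mt1. Mt1 rose by 0.80 on the log2 scale (SE 0.15, 95% interval 0.46 to 1.14, adjusted p = 0.0101), from a mean of 382 to 611 ± 106 FPKM (SD, 3 KD libraries). Mt2 rose by 0.74 (SE 0.14, 95% interval 0.42 to 1.05, adjusted p = 0.0101), from a mean of 360.1 to 550.4 ± 46.6 FPKM. They were 2 of 6 genes called higher, where 4.22% of 10989 genes were called higher, and 0 of the 6 were called lower, where 9.05% were. The exact permutation p was 0.0286 for each, two-sided and the smallest that 4 against 3 libraries can give. Without KD replicate 2 the adjusted p was 0.0528 for Mt1 at a difference of 0.66 and 0.0515 for Mt2 at 0.71. With no filter on low FPKM it was 0.0570 for Mt1 and 0.0516 for Mt2. Among replicates 1 and 2 the difference of Mt1 was 0.75, and among the higher numbers it was 0.83.

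In blastocysts Mt1 was lower after KD, and Mt2 spanned the control range. Mt1 stood at 772, 1320.5, 881 and 2303 FPKM in KD replicates 1, 4, 5 and 6. Of these, 3 were below the lowest control value of 1814 FPKM, and replicate 6 lay inside the control range. Mt2 stood at 590.2, 1128, 793 and 853 FPKM in the same libraries, which spanned the whole control range from 642 to 1125 FPKM. Mt1 fell by 0.86 on the log2 scale (SE 0.31, adjusted p = 0.0437), with a 95% interval from -1.53 to -0.20, from a mean of 2233 to 1319 ± 697 FPKM (SD, 4 KD libraries). For Mt2 the difference was -0.09 (SE 0.23, 95% interval -0.59 to 0.41, adjusted p = 0.805). The exact permutation p of Mt1 was 0.114.

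The call of Mt1 in blastocysts depended on single libraries. It was lost without control replicate 1 (adjusted p = 0.0611), control replicate 5 (0.0743) or control replicate 6 (0.112). It was also lost without KD replicate 1 (adjusted p = 0.129), KD replicate 4 (0.0516) or KD replicate 5 (0.118). Without KD replicate 6, the library inside the control range, Mt1 was lower by a log2 difference of -1.17 with an adjusted p of 0.00536. With no filter on low FPKM the adjusted p was 0.184, and with upper-quartile scaling it was 0.0779. The difference was -1.297 for replicate 1 against replicate 1 and -0.72 among replicates 4 to 6.

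The stage steps of the KD embryos and the tests of the KD effect between stages share libraries with the comparisons above. From KD 2-cell embryos to KD morulae, Mt1 rose by 1.85 on the log2 scale (adjusted p = 8.94e-06) and Mt2 rose by 1.90 (adjusted p = 2.21e-05). From KD morulae to KD blastocysts the difference was 0.79 for Mt1 (SE 0.32, adjusted p = 0.0723) and 0.38 for Mt2 (SE 0.22, adjusted p = 0.188). For Mt1 that step passed the threshold without KD blastocyst replicate 1 (difference 0.98, adjusted p = 0.0373) and without KD blastocyst replicate 5 (difference 0.99, adjusted p = 0.0292). Over all omissions of 1 library it ranged from 0.48 to 0.99, with adjusted p values up to 0.218. With FPKM as deposited both genes passed, Mt1 at 0.99 (adjusted p = 0.0259) and Mt2 at 0.58 (adjusted p = 0.0334), and with upper-quartile scaling Mt1 passed at 0.86 (adjusted p = 0.0472). The KD effect on Mt1 in blastocysts minus that in morulae was -1.70 (SE 0.38, adjusted p = 0.00881). It passed without any 1 of the 15 libraries of that fit, with adjusted p values up to 0.0321, and missed at 0.0530 with no filter on low FPKM. For Mt2 the same difference was -0.86 (SE 0.29, adjusted p = 0.0612). It passed without control blastocyst replicate 4 (difference -1.03, adjusted p = 0.0275) and without KD blastocyst replicate 4 (difference -1.04, adjusted p = 0.0150). From the 2-cell stage to the morula the KD effect differed by 0.84 for Mt1 (adjusted p = 0.0815) and by 0.56 for Mt2 (adjusted p = 0.346).

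The ratio of Mt1 to Mt2 within a library, a measure chosen after its values were seen, does not depend on the scaling between libraries. It averaged 1.34 ± 0.226 in control and 1.15 ± 0.151 in KD 2-cell embryos, and 1.06 ± 0.0986 in control and 1.11 ± 0.159 in KD morulae (SD). In control blastocysts of replicates 1, 4, 5 and 6 the ratio was 2.13, 2.86, 2.51 and 2.58. In KD blastocysts it was 1.31, 1.17, 1.11 and 2.699. The 4 control blastocyst libraries and KD replicate 6 were above 2, and the other KD blastocyst libraries had ratios like those of earlier stages. The log2 ratio differed by 1.24 between control blastocysts and control morulae (exact permutation p = 0.0286, adjusted over the 7 ratio tests 0.1) and by -0.33 between control morulae and control 2-cell embryos (exact permutation p = 0.0286, adjusted 0.1). Between KD and control blastocysts it differed by -0.78 (exact permutation p = 0.114, adjusted 0.267).

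**Figure D2:**
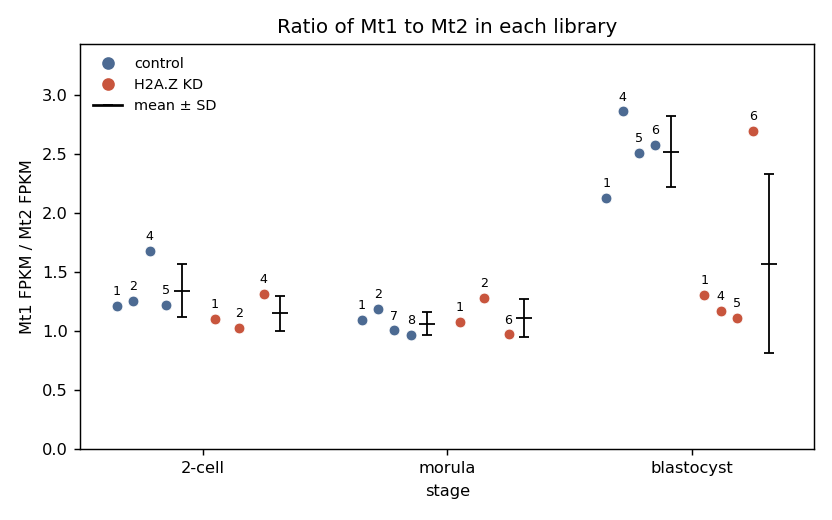
Ratio of Mt1 FPKM to Mt2 FPKM in each of the 22 libraries, 1 point per library with its replicate number, on a linear axis, by group, with a black mark and error bar for the group mean and SD. The 4 control blastocyst libraries lie between 2.13 and 2.86, and the KD blastocysts lie at 1.11, 1.17 and 1.31 with replicate 6 apart at 2.699.

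The blastocyst libraries were also read for markers of their outer cells, whose part in the Mt1 values was not tested. Of 7 trophectoderm genes tested 1 was lower (Krt18) and 1 was higher (Tfap2c), where 19.8% and 16.7% of all genes tested were. These counts were near the background, with Krt7 not counted because it passed the filter through its KD libraries. Their sum, carried mostly by Krt18, was 998, 1476, 1312 and 990.2 FPKM in control replicates 1, 4, 5 and 6, and 585, 743, 786 and 606 FPKM in the KD replicates. Krt18, a keratin of that layer, stood at 730.2, 992, 827 and 646 FPKM in control and at 369, 461, 399 and 329 FPKM in KD libraries. All KD values lay below all control values, and KD replicate 6, the library with high Mt1, had the lowest Krt18 of all. Krt18 fell by 1.02 on the log2 scale (SE 0.18, adjusted p = 0.00126), while Tfap2c of the same list rose. Krt7 was at 0.696 to 1.21 FPKM in control and 1.57 to 2.34 FPKM in KD libraries, and passed the filter through the latter. The 8 inner cell mass genes, led by Nanog, summed to 124, 147, 233 and 156 FPKM in control and to 153, 166, 323 and 222 FPKM in KD blastocysts. Of 5 inner cell mass genes tested there, Klf4 rose and 0 fell, where 16.7% and 19.8% of all genes tested did, and in morulae Nanog was the 1 gene of 4 that fell, where 9.05% did. Klf4 lost its call without control replicate 4 (adjusted p = 0.0958), 5 (0.0603) or 6 (0.0594), or without KD replicate 5 (0.0706) or 6 (0.0685). With no filter on low FPKM neither Klf4 (0.0783) nor Nanog (0.0718) passed, and Klf4 also missed with FPKM as deposited (0.0569).

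Mtf1 (ENSMUSG00000028890.13, chr4:124802104-124849800, plus strand), the zinc-sensing regulator of the metallothioneins, was lowest in control morulae. It stood at 19.1, 17.8, 34.7 and 17.0 FPKM in control 2-cell embryos of replicates 1, 2, 4 and 5, where replicate 4 was far above the others. In control morulae it stood at 12.7, 13.9, 11.4 and 8.57 FPKM, and in control blastocysts at 40.8, 27.4, 26.1 and 21.9 FPKM. Morulae lay below both other stages without overlap. Mtf1 fell by 0.84 on the log2 scale from 2-cell to morula (SE 0.21, adjusted p = 0.00283) and rose by 1.15 from morula to blastocyst (SE 0.23, adjusted p = 0.00104).

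KD 2-cell embryos held 27.6, 35.2 and 31.1 FPKM of Mtf1, above 3 of the 4 control libraries. The difference was 0.60 (SE 0.22, unadjusted p = 0.0201, adjusted p = 0.828). In KD morulae of replicates 1, 2 and 6 the values were 17.5, 8.44 and 19.0 FPKM, of which the first and the last lay above every control and replicate 2 lay below every control. There the difference was 0.40 (SE 0.26, adjusted p = 0.327). It ranged from 0.17 to 0.74 without 1 library, and was 0.04 among replicates 1 and 2 and 0.99 among the higher numbers. In KD blastocysts Mtf1 stood at 19.4, 8.34, 18.7 and 9.49 FPKM, all below the lowest control value of 21.9 FPKM. It fell by 1.05 on the log2 scale (SE 0.29, adjusted p = 0.0140), with a 95% interval from -1.68 to -0.42, from a mean of 29.0 ± 8.15 to 14.0 ± 5.86 FPKM (SD, n = 4 each). The call held without any 1 of the 8 libraries, with adjusted p values up to 0.0456, and was lost with no filter on low FPKM (0.0888). The exact permutation p was 0.0286, the smallest that 4 against 4 libraries can give. The difference was -1.10 for replicate 1 against replicate 1 and -1.03 among replicates 4 to 6.

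From KD 2-cell embryos to KD morulae Mtf1 fell by 1.01 on the log2 scale (adjusted p = 0.00613), and by 0.61 without KD morula replicate 2 (adjusted p = 0.0109). From KD morulae to KD blastocysts the difference was -0.29 (SE 0.33, adjusted p = 0.510), from -0.64 to -0.065 without 1 library and -0.11 with FPKM as deposited. The KD effect on Mtf1 in blastocysts minus that in morulae was -1.49 (SE 0.43, adjusted p = 0.0325). That call was lost without control morula replicate 1 (0.0517) or 8 (0.0575), and without KD morula replicate 1 (0.0861) or 6 (0.0902). It was also lost without control blastocyst replicate 1 (0.0652) and without KD blastocyst replicate 4 (0.0528) or 6 (0.0655). With no filter on low FPKM the adjusted p was 0.129, and with upper-quartile scaling it was 0.0539.

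The transporters were highest in 2-cell embryos. Slc30a1 (ENSMUSG00000037434.7, chr1:191906767-191913247, plus strand) encodes ZnT1, which exports zinc across the plasma membrane. Control 2-cell embryos held 13.4, 14.6, 9.38 and 9.96 FPKM of it. Control morulae held 2.43, 1.57, 1.39 and 1.06 FPKM, and control blastocysts held 1.06, 1.37, 1.10 and 1.22 FPKM. The 2-cell values stood far above the later ones, and morulae and blastocysts overlapped. Slc30a1 fell by 2.31 on the log2 scale from 2-cell to morula (SE 0.21, adjusted p = 6.83e-07), and from morula to blastocyst the difference was -0.28 (SE 0.15, adjusted p = 0.135).

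KD 2-cell embryos held 16.4, 20.0 and 17.9 FPKM of Slc30a1, all above the highest control value of 14.6 FPKM. The difference was 0.65 (SE 0.20, unadjusted p = 0.00852, adjusted p = 0.828), and the exact permutation p on scaled values was 0.0571. On scaled values the groups of Slc30a1 and of Slc39a10 did not overlap, with KD higher, which is 2 of 6 genes where 3.79% of all genes tested had KD groups wholly above control, and 0 of 6 lay wholly below, where 3.14% did. KD morulae held 1.08, 1.504 and 1.89 FPKM, inside the control range, with a difference of 0.03 (SE 0.19, adjusted p = 0.934). KD blastocysts held 1.55, 1.29, 1.83 and 1.48 FPKM, of which replicate 4 lay inside the control range as deposited and none did after scaling. The difference there was 0.22 (SE 0.14, adjusted p = 0.264), with an exact permutation p of 0.0286 on scaled values and 0.0571 on FPKM as deposited. From KD 2-cell embryos to KD morulae Slc30a1 fell by 2.88 (adjusted p = 6.77e-07), and from KD morulae to KD blastocysts the difference was -0.09 (adjusted p = 0.742).

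Slc39a6 (ENSMUSG00000024270.11, chr18:24579881-24603817, minus strand) encodes the zinc importer ZIP6. It stood at 11.5, 10.3, 14.2 and 13.2 FPKM in control 2-cell embryos. In control morulae it stood at 1.69, 1.56, 1.21 and 1.48 FPKM, and in control blastocysts at 0.531, 0.911, 1.08 and 1.12 FPKM. Each stage lay wholly below the one before. Slc39a6 fell by 2.42 on the log2 scale from 2-cell to morula (SE 0.15, adjusted p = 2.04e-08). From morula to blastocyst the difference was -0.44 (SE 0.14), where the filter was passed through the morula libraries, so no call is read from it. At levels near 1 FPKM the pseudocount of 1 shrinks a log2 difference, and with a pseudocount of 0.1 the last step was -0.77.

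In KD 2-cell embryos Slc39a6 stood at 13.8, 18.3 and 11.4 FPKM, across the control range, with a difference of 0.27 (SE 0.18, adjusted p = 0.839). In KD morulae it stood at 0.869, 0.859 and 1.01 FPKM, all below the lowest control value of 1.21 FPKM. The difference was -0.31 (SE 0.15, adjusted p = 0.180), and Slc39a6 passed the filter there through its control libraries. Of the other genes of the set 0 had KD wholly below control, where 15.9% of genes tested had. In KD blastocysts the order turned: 1.41, 1.25, 1.89 and 1.80 FPKM, all above the highest control value of 1.12 FPKM. The difference was 0.45 on the log2 scale (SE 0.15, 95% interval 0.11 to 0.78), between means of 0.911 ± 0.269 and 1.59 ± 0.306 FPKM (SD, n = 4 each), with an exact permutation p of 0.0286. Only 2 of the 4 control libraries reached the 1 FPKM of the filter, so Slc39a6 was tested by limma because its KD libraries were high, and its adjusted p of 0.0381 is not taken as a call. With a pseudocount of 0.1 the difference was 0.78.

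In the blastocyst comparison the adjusted p of Slc39a6 was above 0.05 without control replicate 1 (adjusted p = 0.108), 4 (0.0813) or 5 (0.0522), and without KD replicate 1 (0.0570), 5 (0.0640) or 6 (0.0936). It was 0.0583 with no filter on low FPKM and 0.0623 with FPKM as deposited. From KD 2-cell embryos to KD morulae the difference was -2.94, where Slc39a6 passed the filter through its 2-cell libraries, and from KD morulae to KD blastocysts the difference was 0.32 (SE 0.17, adjusted p = 0.151), opposite in sign to the control step. The KD effect in blastocysts minus that in morulae was 0.73 (SE 0.19, adjusted p = 0.0185), and 1.27 with a pseudocount of 0.1. That call was lost without KD morula replicate 1 (difference 0.70, adjusted p = 0.0515).

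Slc39a10 (ENSMUSG00000025986.6, chr1:46807544-46892852, minus strand) encodes the zinc importer ZIP10 and was the highest transporter of the set in 2-cell embryos. It stood at 28.9, 25.1, 29.7 and 27.8 FPKM in control 2-cell embryos, and at 34.2, 34.0 and 35.7 FPKM in KD. Every KD library was above every control library, with a difference of 0.37 (SE 0.14, unadjusted p = 0.0253, adjusted p = 0.828) and an exact permutation p of 0.0286. Control morulae held 3.77, 2.77, 3.28 and 2.19 FPKM and KD morulae held 3.28, 3.65 and 2.82 FPKM. Control blastocysts held 2.39, 2.33, 2.66 and 2.20 FPKM and KD blastocysts held 2.36, 2.68, 3.37 and 3.50 FPKM. At both later stages the groups overlapped, with differences of 0.20 (adjusted p = 0.446) and 0.22 (adjusted p = 0.296). Slc39a10 fell by 2.87 on the log2 scale from 2-cell to morula in control (SE 0.16, adjusted p = 8.31e-09), and the same step in KD embryos was -3.01 (adjusted p = 1.66e-07). From morula to blastocyst the difference was -0.28 in control (adjusted p = 0.126) and -0.25 in KD embryos (adjusted p = 0.296).

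Over the set, in blastocysts 2 of 6 genes were lower (Mt1 and Mtf1), where 19.8% of 11828 genes tested were. The share higher was 16.7%, and of the 6 this holds Slc39a6 alone, which passed the filter through its KD libraries and is read no further. Mtf1 alone of the 6 also passed an absolute log2 fold change of 1, where 7.76% of genes did so as lower. That pass was narrow, as Mtf1 was at -0.94 with upper-quartile scaling and between -1.26 and -0.84 without 1 library, and Mt1 was at -1.17 without KD replicate 6. Groups of scaled values did not overlap for 1 gene with KD higher (Slc30a1, with Slc39a6 again not counted), where 16.1% of genes had this order, and for 1 with KD lower (Mtf1), where 19.4% had. In morulae the genes with KD wholly above control were 2 of 6 (Mt1 and Mt2), where 12.2% had this order. The KD effect differed between morula and blastocyst in 1 gene that was higher in the later stage (Slc39a6), where 5.43% of 12727 genes were, and in 2 that were lower (Mt1 and Mtf1), where 6.3% were. Between the 2-cell stage and the morula it differed in 0 of the 6, where 0.431% of 14605 genes were higher and 1% lower, and 2145, or 14.7%, had an unadjusted p under 0.05. All 6 genes passed the filter on low FPKM in each comparison.

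**Figure D3:**
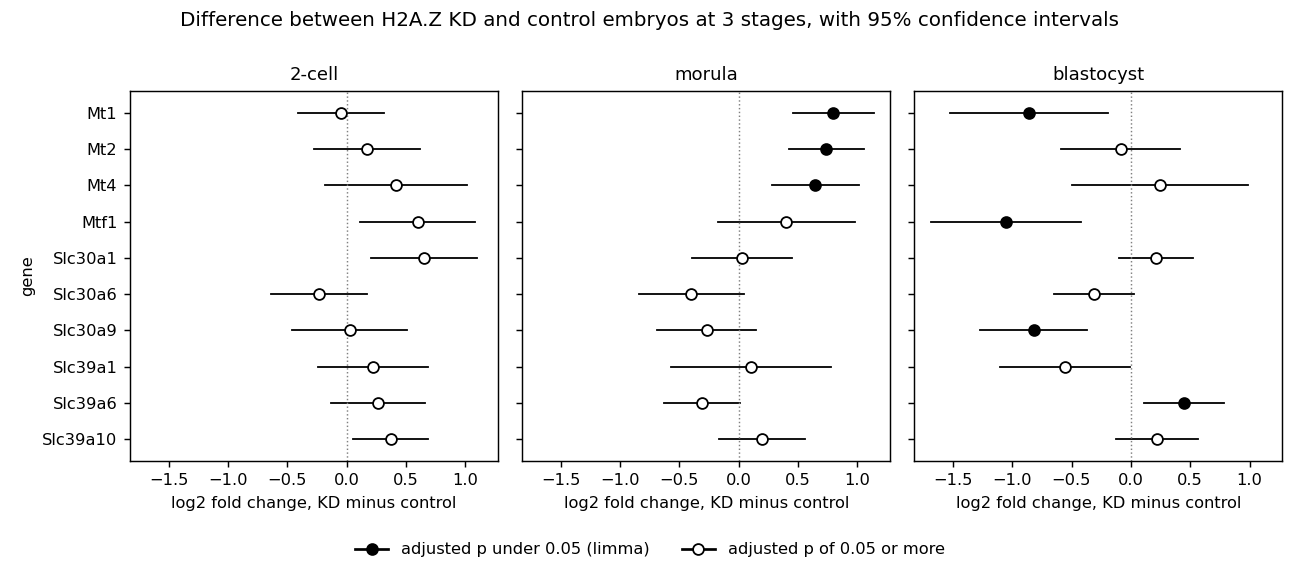
Log2 fold change, KD minus control, at each stage for the 6 genes and for Mt4, Slc30a6, Slc30a9 and Slc39a1, with 95% intervals from limma. Filled points passed an adjusted p of 0.05: Mt1, Mt2 and Mt4 above 0 in morulae, Slc39a6, past the filter through its KD libraries, above 0 and Mt1, Mtf1 and Slc30a9 below 0 in blastocysts.

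Among the stage steps, 2 of 6 genes rose from control 2-cell to control morula (Mt1 and Mt2), where 43% of 13655 genes rose, and 4 fell, where 40.3% fell. In KD embryos Mt1 and Mt2 rose, where 43.6% of 12690 genes did, and Mtf1, Slc30a1 and Slc39a10 fell, where 40% did, with Slc39a6 not counted because it passed the filter through its 2-cell libraries. From control morula to control blastocyst 3 rose (Mt1, Mt2 and Mtf1), where 27.6% of 11849 genes did, and 0 fell, where 28.8% did, with Slc39a6 not counted because it passed the filter through its morula libraries. From KD morula to KD blastocyst 0 of 6 passed, where 19.2% of 11370 genes rose and 18.2% fell, and 5326, or 46.8%, had an unadjusted p under 0.05. The levels of the 6 groups were ordered alike for Mt1 and Mt2: blastocysts were highest, then KD morulae, control morulae and 2-cell embryos, and the neighbours that overlapped were the control and KD groups of blastocysts and of 2-cell embryos. For Mtf1 every group overlapped the next in the order of means. For Slc30a1, Slc39a6 and Slc39a10 both 2-cell groups lay above all later groups. The means of Slc39a6 were 1.59 FPKM in KD blastocysts and 1.49 FPKM in control morulae, with overlap, and 0.911 FPKM both in KD morulae and in control blastocysts, with overlap.

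Within groups, Mt1 exceeded Mt2 without overlap in control 2-cell embryos and in control blastocysts, and the pair overlapped in the other 4 groups. Mtf1 ranked next after the metallothioneins in morulae and blastocysts, and Slc39a10 took that place in 2-cell embryos, where it overlapped Mtf1. Profiles were compared by the root mean square difference of centred log2 group means over the 6 groups, a description with no test. The transporters lay closest together, at 0.169 between Slc30a1 and Slc39a6, 0.209 between Slc30a1 and Slc39a10 and 0.252 between Slc39a6 and Slc39a10. Mt1 and Mt2 differed by 0.423, and Mtf1 differed from Slc30a1, its nearest member, by 1.04.

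Of 15697 genes, those with profiles most like Mt1 were Pon2 (0.124), Agrp (0.162) and Tmem45b (0.194). Rap2b (0.130), Cbs (0.167) and Cox5a (0.170) were nearest to Mt2. Ncor1 (0.109), L1td1 (0.168) and Tmem243 (0.172) were nearest to Mtf1. Prkd1 (0.0680), Taf5 (0.0709) and Cpb2 (0.0840) were nearest to Slc30a1. Ankrd6 (0.0715), Gm5698 (0.108) and Gm49371 (0.123) were nearest to Slc39a6. Stxbp5 (0.0467), Cdk12 (0.0749) and Gm48829 (0.0758) were nearest to Slc39a10. With a pseudocount of 0.1, 3 of these 18 genes were again among the nearest: Ncor1, L1td1 and Ankrd6.

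Because Mt1 and Mt2 rose together in morulae, their promoters and that of Slc30a1 are shown with the core letters of the metal response element, TGCACNC or TGCGCNC on either strand. The 250 bases upstream of the RefSeq start (RefSeq, GRCm38.p6, all on the plus strand) are printed 5′ to 3′. They lie at chr8:94178839-94179088 for Mt1, chr8:94172368-94172617 for Mt2 and chr1:191906531-191906780 for Slc30a1. Matches are in capitals, and a match on the minus strand reads as its reverse complement.
Mt1: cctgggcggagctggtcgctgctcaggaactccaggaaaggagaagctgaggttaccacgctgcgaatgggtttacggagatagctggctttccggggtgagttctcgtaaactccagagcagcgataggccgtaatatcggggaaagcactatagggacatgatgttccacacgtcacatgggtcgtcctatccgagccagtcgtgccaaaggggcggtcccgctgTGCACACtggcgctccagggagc
Mt2: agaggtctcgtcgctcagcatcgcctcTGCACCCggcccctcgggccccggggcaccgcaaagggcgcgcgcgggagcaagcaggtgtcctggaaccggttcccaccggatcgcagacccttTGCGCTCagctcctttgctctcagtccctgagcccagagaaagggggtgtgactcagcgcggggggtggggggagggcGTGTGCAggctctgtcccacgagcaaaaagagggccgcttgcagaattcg
Slc30a1: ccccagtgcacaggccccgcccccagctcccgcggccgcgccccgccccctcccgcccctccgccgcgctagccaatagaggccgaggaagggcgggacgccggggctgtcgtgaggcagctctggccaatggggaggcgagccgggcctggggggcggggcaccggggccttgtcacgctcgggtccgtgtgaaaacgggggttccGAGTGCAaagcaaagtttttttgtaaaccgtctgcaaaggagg
Upstream of the start, Mt1 had 1 match, Mt2 had 3 and Slc30a1 had 1. In windows of 300 bases that add the first 50 bases after the start, Mt1 had 3, Mt2 had 4 and Slc30a1 had 2. Positions are counted from the start: TGCACAC at -23, TGCACTC at 3 and TGCGCTC at 21 for Mt1, and TGCACCC at -223, TGCGCTC at -128, GTGTGCA at -50 and GTGCGCA at 5 for Mt2. In Slc30a1 the matches were GAGTGCA at -43 and GAGCGCA at 31. Among 32851 RefSeq windows of that length, 25.7% held at least 1 match, 7.11% at least 2, 1.97% at least 3 and 0.517% at least 4. The window of Mtf1 and both windows of Slc39a10 held 0, and 5 of the 6 genes had a window. A match describes letters only.

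The libraries were not stranded, and exons of 3 genes overlapped the exons of a gene on the other strand. Gm45774, opposite Mt2, was at 0.507 to 3.49 FPKM across the libraries. It was at 0.594 to 0.937 FPKM in control and 1.01 to 1.49 FPKM in KD morulae, so it too was higher in all KD libraries there, and its part in the Mt2 values was not tested. 1110065P20Rik, opposite the end of Mtf1, was at 2.11 to 3.396 FPKM in control and 0.673 to 1.22 FPKM in KD blastocysts, so it too was lower in all KD libraries there, and its part in the Mtf1 values was not tested. 1700034H15Rik, opposite Slc30a1, was at 1.19 to 4.89 FPKM in control and 0.915 to 2.99 FPKM in KD 2-cell embryos, and at most 0.0337 FPKM in control and 0.0355 to 0.114 FPKM in KD blastocysts. No 50-base stretch of the Mt1, Mt2, Mtf1, Slc30a1 or Slc39a6 transcripts occurred in another gene, and 27 of those of Slc39a10 occurred in Gm6801. Of the other zinc genes named below, Slc39a1 shared the most, 504 stretches with Slc39a1-ps.

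The set was read beside the other zinc genes of mouse, 2 metallothioneins, 9 ZnT transporters and 12 ZIP transporters, which make 29 with the 6. Of the 29, 18 passed the filter in 2-cell embryos and in morulae and 20 in blastocysts. In 2-cell embryos 0 passed the test, where 0% of all genes tested did. In morulae 3 were higher (Mt1, Mt2 and Mt4) and 0 lower, where 4.22% and 9.05% of all genes tested were. In blastocysts 3 of 20 were lower (Mt1, Mtf1 and Slc30a9), where 19.8% of all genes tested were, and 0 were higher, where 16.7% were, with Slc39a6 not counted because it passed the filter through its KD libraries.

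Mt4, a metallothionein known from stratified epithelium, was low. Control morulae held 1.70, 2.15, 1.88 and 2.27 FPKM and KD morulae held 3.32, 3.16 and 3.72 FPKM. All KD libraries were above all controls, and Mt4 rose by 0.64 (SE 0.17, adjusted p = 0.0301). That call was lost without control replicate 2 (0.0544) or 7 (0.0698), without KD replicate 1 (0.0731), 2 (0.0809) or 6 (0.0821), and with no filter on low FPKM (0.0809). With the replicate block the adjusted p of Mt4 was 0.0844. In blastocysts its difference was 0.24 (adjusted p = 0.616). Mt3, the brain metallothionein, was at 0 in the 4 control morula libraries and did not pass the filter.

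Of the other ZnT genes, Slc30a9 (ZnT9), known from mitochondria, stood at 7.31, 10.9, 9.84 and 6.77 FPKM in control blastocysts. It stood at 3.83, 2.98, 5.16 and 6.17 FPKM in KD blastocysts. All KD libraries were below all controls, and Slc30a9 fell by 0.82 (SE 0.21, adjusted p = 0.00871). It was the 1 gene of 6 tested that passed at that stage, where 19.8% of all genes tested were lower and 16.7% higher. In 2-cell embryos and morulae 0 of 6 passed, where 0% and 4.22% of all genes tested were higher and 0% and 9.05% lower. Slc30a6 (ZnT6), a Golgi transporter and the highest of this list, had means of 40.6 FPKM in control and 32.5 FPKM in KD blastocysts, a difference of -0.31 (SE 0.15, adjusted p = 0.139). Of the other ZIP genes 0 passed at any stage, of 5, 5 and 7 tested, where 0%, 4.22% and 16.7% of all genes tested were higher and 0%, 9.05% and 19.8% lower. Slc39a1 (ZIP1), the highest of them, had means of 63.8 FPKM in control and 44.0 FPKM in KD blastocysts, a difference of -0.55 (SE 0.25, unadjusted p = 0.0488, adjusted p = 0.107). In morulae its mean was 92.6 FPKM in control and 87.1 FPKM in KD embryos.

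Through development the other transporters did not all share the course of Slc30a1, Slc39a6 and Slc39a10. From control 2-cell embryos to control morulae Slc39a1 rose by 2.11 on the log2 scale (adjusted p = 2.48e-05), from a mean of 20.0 to 92.6 FPKM. Slc30a9 fell over that step, from a mean of 7.10 to 2.04 FPKM, and rose by 1.61 from control morula to control blastocyst (adjusted p = 3.28e-05).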

How the data were processed

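The authors aligned the reads to mm10 (GRCm38) with STAR and deposited FPKM per gene from StringTie 2.1.4, and no further scaling between libraries is stated. Values were fitted with limma 3.58.1 in R 4.3.3 (trend, two-sided) on the log2 of scaled FPKM plus a pseudocount of 1, keeping genes that reached an FPKM of 1 in 3 or more libraries of the comparison. Each library was scaled by the median over genes of its ratio to the geometric mean of the libraries in that fit, and p-values were adjusted by Benjamini-Hochberg over all genes tested. A gene was called at an adjusted p under 0.05, and as a differentially expressed gene (DEG) where the absolute log2 fold change also passed 1. Only the libraries of the groups compared entered a fit, and differences between stages in the KD effect were tested as the interaction of stage and condition. The 6 genes were also tested by exact permutation over libraries, and 6 of 18 such tests had a p under 0.05. These p-values were not adjusted over the 18 tests. All 6 were 0.0286, the smallest possible, which needs groups of scaled values that do not overlap. Other genes had no such test, so the count has no share over all genes beside it. The count holds Slc39a6 in blastocysts, which passed the filter of limma through its KD libraries. The steps were tested on simulated data. Python 3.11.15, numpy 2.4.6, pandas 2.3.3 and matplotlib 3.10.9 served for descriptions, sequences and figures.

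Named were the 6 genes, H2afz and H2afv, the highest gene of the other zinc lists and every gene of them called between KD and control, up to 3 called genes per copper, iron, NRF2 and glucocorticoid list with the largest change at each stage, 3 genes nearest in profile to each of the 6, and the marker lists for stage, lineage, oocyte, cumulus and sperm. Called marker genes were picked with their values in view. The genes and lists were chosen with earlier results of these data known. The alternatives were another pseudocount, no filter or a higher one, FPKM as deposited, upper-quartile scaling, the replicate number as a block or its range as a covariate, and leaving out each library in turn. For the Mt1 to Mt2 ratio, leaving out libraries was added after its values were seen.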

Additional observations from a re-analysis of the deposited data

Results flagged for a closer look

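In each group of 4 libraries the highest and the lowest library were compared with the nearest other, and chance alone marks about 1 in 20 of the 104 groups so compared. Mtf1 stood at 34.7 FPKM in control 2-cell replicate 4, far above the other control libraries of that stage. The Mt1 to Mt2 ratio was highest in that same library, at 1.68, and among KD blastocysts it stood apart in replicate 6, at 2.699. Slc30a6 reached 37.4 FPKM in 1 KD blastocyst library, above the other KD libraries. Hmox1 reached 4.02 FPKM in 1 control 2-cell library. Fth1 was as low as 461 FPKM in 1 control blastocyst library. Gclm reached 9.24 FPKM in 1 control 2-cell library and 10.5 FPKM in 1 control morula library. Gclc was as low as 0.998 FPKM in 1 KD blastocyst library.

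The remaining values are differences between KD effects at consecutive stages that passed the limma test of the difference itself. From the 2-cell stage to the morula the KD effect changed by -2.88 for H2afz and by -2.71 for H2afv on the log2 scale. The value for Nanog was -2.15, but Nanog reached 1 FPKM in 0 libraries of either 2-cell group. It entered that fit through the morulae, so no change is read from it. From morula to blastocyst the KD effect changed by -1.70 for Mt1, by -1.49 for Mtf1 and by 0.73 for Slc39a6. Over the same step it changed by 1.04 for H2afv. Of the iron genes, Tfrc changed by 1.81 and Slc11a2 by 1.36. Of the copper genes, Commd1 changed by -1.11, Slc31a2 by -1.89 and Ccs, in the other direction, by 0.93. Dusp1, of the glucocorticoid list, changed by 1.01, and Me1, of the NRF2 list, by -1.29. Of the marker genes, Nanog changed by 2.49 and Tfap2c by 1.10.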

How the results depend on the processing

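Of values that answer a comparison, 350 in other settings stayed the same and 52 moved. Of other values 1279 stayed on their side of the threshold in the same direction, 57 calls were lost, 8 were gained, 23 values changed sign and 8 moved. Where a value changed, the cause was not tested, apart from the number of genes tested, which changes with the filter. Depth is unknown, so the precision of Slc30a1 and Slc39a6 near 1 FPKM cannot be given.

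Morula DEGs numbered 395, and 790 with a pseudocount of 0.1, 171 with no filter and 235 with FPKM of at least 5. Blastocyst DEGs numbered 1640, and 2479 with a pseudocount of 0.1. From 2-cell to morula FPKM of at least 5 gave 5682 in control and 5212 in KD embryos. Leaving out 1 library gave 0 to 3 DEGs in 2-cell embryos. DEGs by the difference between the morula and 2-cell effects numbered 182, 68 with no filter, and 85 to 278 without 1 library. By the difference between the blastocyst and morula effects they numbered 981, and 576 with no filter.

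The counts of this paragraph hold Slc39a6 wherever it passed, also where it was not counted above. Of the 6 genes, 0 were higher in morulae with no filter, and 0 to 2 without 1 library. In blastocysts 0 were higher and 0 lower with no filter, 0 higher with FPKM of at least 5 or as deposited, 1 lower with upper-quartile scaling, and 0 to 1 higher and 1 to 2 lower without 1 library. From control morula to control blastocyst 0 were lower with FPKM of at least 5, beside 1 (Slc39a6) in the main fit. From KD morula to KD blastocyst 2 were higher with FPKM as deposited, 1 with upper-quartile scaling, and 0 to 1 without 1 library. For the difference between the blastocyst and morula effects 0 were lower with no filter, 0 higher with FPKM of at least 5, 1 lower with upper-quartile scaling, and 0 to 1 higher and 1 to 3 lower without 1 library. Of the 18 genes nearest in profile, 3 were named again with a pseudocount of 0.1.

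Only values that had not passed the test changed sign. Slc30a1 in morulae was -0.056 with FPKM as deposited (exact permutation p = 0.857) and from -0.11 to 0.17 without 1 library. From KD morula to KD blastocyst Slc30a1 was 0.036 with FPKM as deposited and from -0.24 to 0.046 without 1 library. Mt2 in blastocysts was 0.027 with upper-quartile scaling and from -0.26 to 0.043 without 1 library. In 2-cell embryos, without 1 library, Mt1 ranged from -0.15 to 0.069 and Mt2 from -0.012 to 0.39. The Slc39a10 difference between the blastocyst and morula effects was 0.0037 with a pseudocount of 0.1, 0.12 with FPKM as deposited, 0.094 with upper-quartile scaling and from -0.063 to 0.071 without 1 library. That of Mtf1 between the morula and 2-cell effects ranged from -0.45 to 0.13 without 1 library.

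With the replicate block, Slc30a1 in morulae was -0.27 (adjusted p = 0.548), Mt1 was 0.75 and Mt2 was 0.71 there, and Mt4 (adjusted p = 0.0844) and Gclm (0.0611) lost their calls. The block gave 0, 521 and 1646 DEGs at the 3 stages. Each library was taken as its deviation from its own group mean. These deviations of control and KD libraries with the same number correlated across genes between -0.11 and 0.35. In morulae all pairs from the same range of numbers, 1 and 2 or higher, correlated positively (0.094 to 0.35) and all others negatively (-0.28 to -0.094), while 2-cell embryos had 1 exception each way and blastocysts had no such order. With that range as a covariate 0, 368 and 1643 genes were DEGs. No call of a gene named here was lost, and none of the 6 genes gained a call. Gains by other named genes were not looked for. The labels do not state that numbers pair libraries. In morulae the block can use replicates 1 and 2 alone.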

Other observations

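Other metal and stress genes moved in the same libraries, and the lists were chosen with earlier results of these data known. Of 9 copper genes, 7 were tested in blastocysts and 3 were lower after KD, with 0 higher, where 19.8% of all genes tested were lower and 16.7% higher. Slc31a2, a copper transporter, fell by 2.04 on the log2 scale from 14.7 ± 1.15 to 2.84 ± 0.599 FPKM (SD, n = 4 each), with an adjusted p of 1.87e-05 by limma. Commd1, a regulator of copper export, fell by 1.27 from 39.3 to 15.4 FPKM (adjusted p = 0.000510), and Slc31a1, the main copper importer, fell by 0.71 from 39.3 to 23.7 FPKM (adjusted p = 0.00671). Each of these had all KD libraries below all controls. In 2-cell embryos and morulae 0 of 7 passed, where 0% and 4.22% of all genes tested were higher and 0% and 9.05% lower.

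Of 8 iron genes tested, 2 rose in morulae and 4 in blastocysts, where 4.22% and 16.7% of all genes tested did. At either stage 0 were lower, where 9.05% and 19.8% were. In morulae Hmox1, which breaks down heme, rose by 1.35 from 3.47 to 9.54 FPKM (adjusted p = 0.00444), and Fth1, the ferritin heavy chain, rose by 0.95 from 568 to 1002 FPKM (adjusted p = 0.00381). In blastocysts Tfrc, the transferrin receptor, rose by 2.34 from 6.02 to 34.2 FPKM (adjusted p = 3.34e-06), Hmox1 rose by 1.80 from 20.2 to 60.4 FPKM (adjusted p = 0.00363), and Slc11a2, an iron importer, rose by 1.31 from 7.54 to 19.3 FPKM (adjusted p = 0.00153). The NRF2 list, which also holds Hmox1, had 2 of 9 higher in morulae and 4 in blastocysts, of 11 tested and with Gclc not counted, with 0 lower, beside the same shares. In blastocysts the call of Nfe2l2 held in 3 of 8 fits without 1 library and that of Gclm in 7 of 8. Gclc passed the filter there through its KD libraries and in 5 of the 8 fits without 1 library, at 0.998 to 2.22 FPKM beside 0.366 to 0.727 FPKM in control. Gclm, of glutathione synthesis, rose by 0.70 in morulae (adjusted p = 0.0104), a call lost with the replicate block (0.0611). In blastocysts Txnrd1, a thioredoxin reductase, rose by 1.12 (adjusted p = 0.00171). Of 3 glucocorticoid response genes tested in blastocysts, Dusp1 rose by 1.34 from 2.92 to 8.99 FPKM (adjusted p = 0.00110) and Klf9 fell by 0.64 from 8.13 to 4.89 FPKM (adjusted p = 0.0154). Of all genes tested there, 16.7% were higher and 19.8% lower. Each rise or fall given here with an adjusted p held without any 1 library. In 2-cell embryos 0 genes of these lists passed, where 0% of all genes tested did.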
